A study of Mus musculus with 6 samples.

Results

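The genes described here are the cell cycle brakes and D-type cyclins of activated T cells: the inhibitors Cdkn1a, Cdkn1b, Cdkn2a, Cdkn2c and Cdkn2d, the cyclins Ccnd2, Ccnd3 and Ccng2, the kinase Cdk6 and the pocket protein gene Rbl2. They were picked by name and looked up by gene symbol in the deposited table of normalized signal, which listed 9 of the 10 among its 13564 genes. Cdkn2a was not listed there, and its counts were read from the per-library files. RNA was sequenced from 3 cultures of Foxo1TKO T cells and 3 cultures of Foxo1Ctrl T cells. Foxo1TKO mice carry floxed Foxo1 alleles with a Cre transgene under the CD4 promoter, which acts in the thymus at the CD4+CD8+ stage, so that both T-cell lineages lose the gene. Foxo1Ctrl mice carry the floxed alleles without Cre, and both are on the C57BL/6 background. Naive CD4 T cells sorted from lymph nodes of young adult mice were stimulated for 4 days with 0.1 µg/ml of a soluble antibody to CD3 (clone 145-2C11), with 250000 splenocytes from CD3eKO mice, which have no T cells, as accessory cells. The labels give 50000 T cells per culture, and the study's methods give a larger number. No source used here says that the splenocytes were removed before RNA extraction, or that replicates came from separate animals. The p-values below therefore measure the spread between these libraries.

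To divide, a resting T cell has to bring D-type cyclins together with Cdk4 or Cdk6. These kinases phosphorylate the pocket proteins (Rb1, Rbl1 and Rbl2), which otherwise hold E2F target genes silent. Inhibitors of the INK4 family (Cdkn2a to Cdkn2d) bind Cdk4 and Cdk6 directly, and inhibitors of the CIP/KIP family (Cdkn1a, also called p21Cip1, and Cdkn1b, p27Kip1) act mainly on cyclin E and cyclin A complexes of Cdk2. Foxo transcription factors are known from other cells to activate Cdkn1b, Ccng2 and Rbl2 and to repress Ccnd2. T-cell receptor and cytokine signals push Foxo1 out of the nucleus.

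Library totals ran from 14783853 to 19675407 expected counts. The label of every library was checked first on Foxo1 itself. TMM-normalized counts (counts scaled by edgeR's trimmed mean method) of Foxo1 were 85.4, 46.5 and 115 in Foxo1TKO replicates 1, 2 and 3 and 1529, 2285 and 1598 in the Foxo1Ctrl replicates, a log2 fold change of -4.45 ± 0.36 (SE; edgeR quasi-likelihood test, adjusted p = 0.000195). These counts cover the whole gene and not the floxed exon alone. Markers of T cells summed to 11329 to 12869 TPM (a level scaled to the library and corrected for transcript length) in Foxo1TKO and 13049 to 14716 TPM in Foxo1Ctrl libraries. All 10 of them, Cd3e and Cd4 included, were tested, 2 were called lower and none higher. B-cell markers, from a cell type of the added splenocytes, summed to 8.55 to 11.51 TPM and 26.42 to 34.99 TPM. Of 9 such markers 8 were tested and 5 were called lower, with Pax5 under the count filter. In bulk RNA, fewer cells of a type and less RNA per cell cannot be told apart. Dendritic cell markers summed to 10.43 to 11.04 TPM against 2.11 to 4.43 TPM, with 3 of 7 tested and 1 called higher. For plasma cells the sums were 110.55 to 158.81 against 179.12 to 240.29 TPM (3 of 4 tested called lower). For macrophages and monocytes they were 4.61 to 6.03 against 2.63 to 4.29 TPM, with 2 of 8 tested and 0 called. The median log2 fold change of these 2 was -0.184, opposite in sign to the change of their sum, so this sum does not speak for its list. The NK cell list, in which Klra8 was at 0 and Ncr1 under the count filter, summed to 2916 to 3523 TPM against 949 to 1296 TPM, with 1 of 4 tested called in each direction. The median log2 fold change of these 4 was -0.483, opposite in sign to the change of the sum, so the sum does not speak for the list. Neutrophil markers reached 5.47 TPM at most and none was tested. The part that any of these cell types had in the differences below was not tested.

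Of the 9 genes tested, 3 were called between the genotypes, which took both an adjusted p under 0.05 and a change of more than 1.5-fold: Cdkn1b and Cdkn2d fell in Foxo1TKO libraries and Rbl2 rose. Over all 13691 genes tested, 23.0% were called (11.1% higher and 11.8% lower). The libraries of the genotypes did not overlap for 4 of the 9, these 3 and Ccnd2, where the background over all genes was 42.7%. The median log2 fold change of the 9 was 0.39, beside 0.01 over all genes. Neither count was read as a result about the genes as a group, and the description rests on the single genes.

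**Figure D1:**
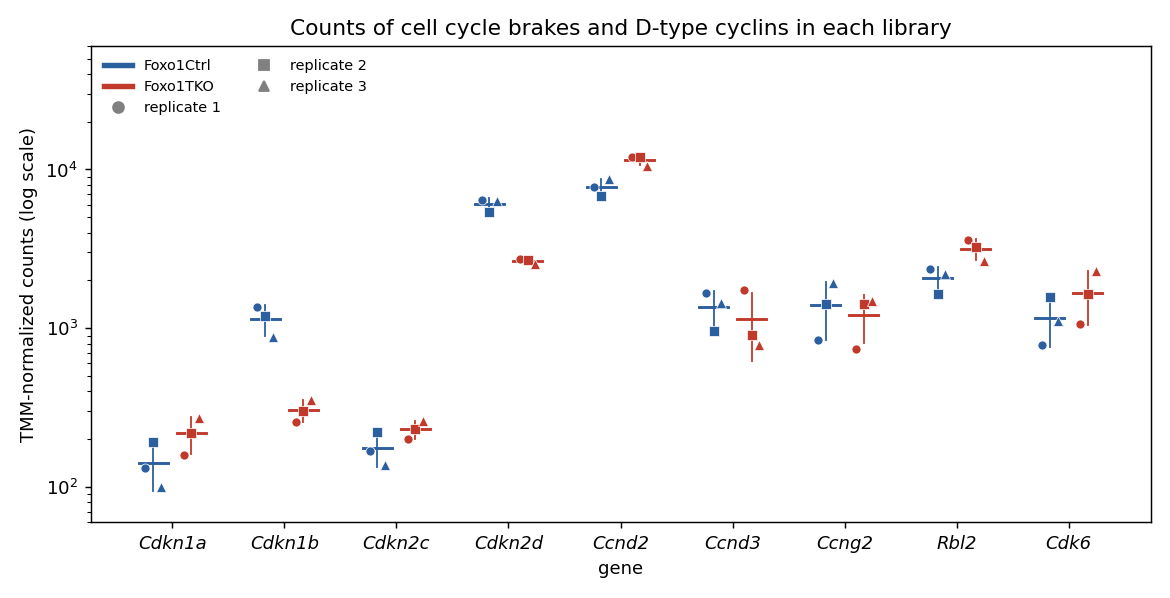
TMM-normalized counts (y axis, log scale) of the 9 tested genes in each library. Blue marks Foxo1Ctrl and red Foxo1TKO, the marker shape gives the replicate, the horizontal line is the mean and the vertical line the SD (n = 3). Cdkn1b and Cdkn2d have all red points under all blue ones, and Ccnd2 and Rbl2 have all red points above.

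The largest change was that of Cdkn1b (ENSMUSG00000003031, GRCm38 chr6:134920401-134925513, plus strand), which encodes p27Kip1, the inhibitor whose loss in mice enlarges lymphoid organs. Its TMM-normalized counts were 256, 302 and 354 in the Foxo1TKO libraries and 1370, 1203 and 877 in the Foxo1Ctrl libraries. Every Foxo1TKO library lay under every Foxo1Ctrl library. The means were 304 ± 49.1 and 1150 ± 251 (SD, n = 3 each), a 3.77-fold lower level in Foxo1TKO with a log2 fold change of -1.92 ± 0.22 (SE, adjusted p = 0.000999). In all 15 alternative fits it stayed called, with log2 fold changes from -2.09 to -1.80. The related inhibitor gene Cdkn1a (ENSMUSG00000023067, chr17:29090976-29100727, plus strand), a target of p53, had 160, 220 and 274 counts in Foxo1TKO and 132, 192 and 99.8 in Foxo1Ctrl. These ranges overlapped, and the log2 difference of 0.62 ± 0.31 did not pass the test (adjusted p = 0.195).

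The CIP/KIP pair was thus differently composed in the genotypes. Cdkn1a made up 62.8%, 66.8% and 66.8% of the summed TPM of Cdkn1a and Cdkn1b in the Foxo1TKO libraries and 22.4%, 31.5% and 23.9% in the Foxo1Ctrl libraries (means 65.5% ± 2.29 and 25.9% ± 4.90, SD, n = 3). The order of the pair differed: Cdkn1b was the higher in each Foxo1Ctrl library and Cdkn1a in each Foxo1TKO library. An exact two-sided permutation test gave p = 0.1 (0.1 adjusted over the 4 shares tested), the smallest that 3 libraries against 3 can give, so that no share can pass 0.05 here.

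Among the INK4 inhibitors Cdkn2d carried nearly all of the measured level. Cdkn2d (ENSMUSG00000096472, chr9:21288410-21291407, minus strand) encodes p19Ink4d and had 2730, 2704 and 2551 TMM-normalized counts in Foxo1TKO against 6424, 5410 and 6297 in Foxo1Ctrl. The groups lay far apart, at means of 2662 ± 96.7 and 6044 ± 552. The level was 2.27-fold lower in Foxo1TKO (log2 fold change -1.18 ± 0.14 SE, adjusted p = 0.00102), and it stayed called in all 15 alternative fits (-1.25 to -1.14). Cdkn2d was also among the steadiest genes between replicates: its SD within a genotype was 0.10 on the log2 scale, and 7.5% of the 9235 genes with a mean of at least 100 counts had a smaller one.

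Cdkn2c (ENSMUSG00000028551, chr4:109660876-109667189, minus strand), which encodes p18Ink4c, had 201, 232 and 261 counts in Foxo1TKO and 168, 222 and 138 in Foxo1Ctrl. The ranges overlapped (log2 difference 0.39 ± 0.24, adjusted p = 0.288). Cdkn2d took 92.7%, 91.1% and 89.0% of the summed TPM of the pair in the Foxo1TKO libraries and 96.8%, 95.2% and 97.3% in the Foxo1Ctrl libraries, again without overlap (means 90.9% ± 1.83 and 96.4% ± 1.14, exact permutation p = 0.1, adjusted 0.1).

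Cdkn2c was also the only member whose RSEM length, the mean length of its transcripts weighted by their estimated abundance, did not overlap between the genotypes. It was 1313, 1249 and 1190 bases in Foxo1TKO and 1151, 1159 and 1157 bases in Foxo1Ctrl. The annotation holds 2 transcripts of this gene, ENSMUST00000063531 of 1106 bases, which starts at position 109665372, and ENSMUST00000097921 of 2471 bases, which starts upstream at position 109667189. With these 2 lengths, RSEM's mean length gives the share of the longer transcript, which was 15.2%, 10.5% and 6.12% in Foxo1TKO and 3.31%, 3.87% and 3.71% in Foxo1Ctrl (means 10.6% ± 4.53 and 3.63% ± 0.289, SD, n = 3). Cdkn2c had 141 to 264 expected counts per library, so these shares rest on few reads. The longer transcript was a minor share of Cdkn2c in every library. Its share was higher in each Foxo1TKO library, and no test was run on it. For how many of all genes the lengths do not overlap was not counted, so the difference is given as a description only.

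Cdkn2a (ENSMUSG00000044303, chr4:89274471-89294653, minus strand) encodes p16Ink4a and p19Arf, proteins that accumulate in senescent and aged cells. It had 1.00 count in Foxo1TKO replicate 1, 2.00 counts in Foxo1Ctrl replicate 2 and 0 in the other 4 libraries. A count of 0 allows up to 3 counts, which is between 0.152 and 0.203 CPM (counts scaled to library size) in these libraries. That level holds for the 4 libraries at 0, and the few counts in Foxo1TKO replicate 1 and Foxo1Ctrl replicate 2 allow a somewhat higher one. Cdkn2a was at the limit of detection in both genotypes, and no fold was computed.

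Ccnd2 and Ccnd3 encode the D-type cyclins of lymphocytes, and Ccnd1, the form of epithelial and mesenchymal cells, stayed at or under 0.37 TPM in every library. Ccnd2 (ENSMUSG00000000184, chr6:127125162-127152193, minus strand) had 11997, 12026 and 10458 TMM-normalized counts in Foxo1TKO and 7782, 6807 and 8676 in Foxo1Ctrl. Each Foxo1TKO library lay above each Foxo1Ctrl library, at means of 11494 ± 897 and 7755 ± 935. The log2 fold change of 0.57 ± 0.15 passed the adjusted p (0.0307), as 24.2% of all genes did, but the fold of 1.48 fell short of the limit of 1.5, so Ccnd2 was not called. With a correction for the length of its transcripts in each library the log2 fold change was 0.67 (adjusted p = 0.0151) and Ccnd2 was called. It was called as well on the authors' normalized signal, which holds the same kind of length correction (limma, 0.67, adjusted p = 0.0137). With the limit on the fold, no fit without a length correction called Ccnd2. With 1 library left out, its adjusted p ran from 0.0368 (without Foxo1Ctrl replicate 2, the only such fit under 0.05) to 0.123 (without Foxo1TKO replicate 2).

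Ccnd3 (ENSMUSG00000034165, chr17:47505051-47599691, plus strand) had 1752, 908 and 781 counts in Foxo1TKO and 1675, 956 and 1450 in Foxo1Ctrl. The libraries of a genotype differed more than the genotypes did, and the log2 difference of -0.25 ± 0.34 did not pass the test (adjusted p = 0.646). Its RSEM length, over 21 annotated transcripts, moved with the counts: 1179, 854 and 691 bases in Foxo1TKO and 1008, 682 and 932 bases in Foxo1Ctrl. On the authors' signal, which divides by that length, Ccnd3 was 1232, 918 and 1033 in Foxo1TKO and 1381, 1298 and 1312 in Foxo1Ctrl. There the genotypes did not overlap and the spread was smaller, but the difference still did not pass the test (limma, log2 difference -0.34, adjusted p = 0.178).

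Together the 3 D-type cyclins summed to 792, 649 and 549 TPM in Foxo1TKO and 494, 381 and 514 TPM in Foxo1Ctrl. Ccnd2 was the main one in both. It made up 84.1%, 86.7% and 83.3% of the TPM of Ccnd2 and Ccnd3 in the Foxo1TKO libraries and 72.6%, 72.8% and 74.9% in the Foxo1Ctrl libraries (means 84.7% ± 1.78 and 73.4% ± 1.29, exact permutation p = 0.1, adjusted 0.1). The difference of 11.3 percentage points was 5.88 on TMM-normalized counts, which are not per length. On those counts the genotypes overlapped, as the share in Foxo1Ctrl replicate 2 was above that in Foxo1TKO replicate 1.

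**Figure D2:**
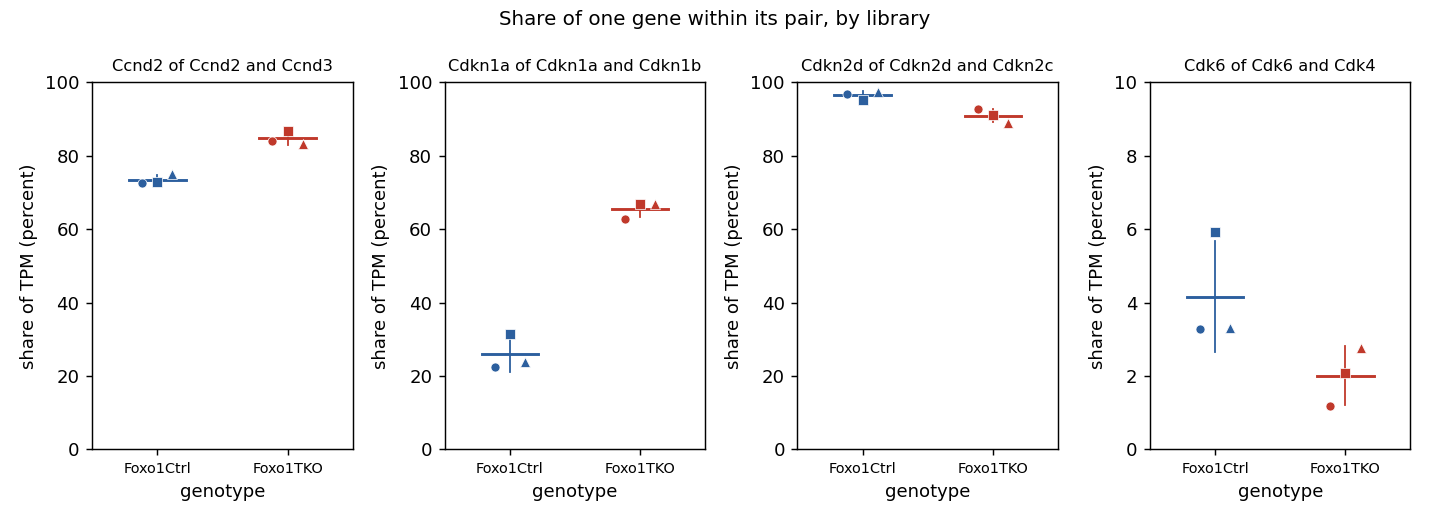
Share of the first gene in the summed TPM of a pair (y axis, percent) in each library of Foxo1Ctrl (blue) and Foxo1TKO (red), with the mean (line) and SD (vertical bar, n = 3); marker shapes are the replicates and the rightmost axis ends at 10%. The groups do not overlap in any of the 4 panels, and the shift is widest for Cdkn1a, from 25.9% to 65.5%.

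Cdk6 (ENSMUSG00000040274, chr5:3341485-3531008, plus strand), one of the kinases that D-type cyclins switch on, had 1071, 1637 and 2296 counts in Foxo1TKO and 786, 1574 and 1112 in Foxo1Ctrl. Replicate 1 was the lowest of its genotype in both, and the ranges overlapped (log2 difference 0.53 ± 0.33, adjusted p = 0.293). Its relative Cdk4 rose, from 2102 ± 300 to 5948 ± 348 counts (log2 fold change 1.5 ± 0.16, adjusted p = 0.000585). Cdk6 was 1.19%, 2.08% and 2.77% of the summed TPM of Cdk6 and Cdk4 in the Foxo1TKO libraries and 3.27%, 5.92% and 3.30% in the Foxo1Ctrl libraries (means 2.01% ± 0.794 and 4.17% ± 1.52, exact permutation p = 0.1, adjusted 0.1). The difference of -2.16 percentage points was -13.4 on TMM-normalized counts, which are not per length, and -1.28 without Foxo1Ctrl replicate 2. Cdk4 was thus the dominant kinase RNA of the pair in all 6 libraries.

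Rbl2 (ENSMUSG00000031666, chr8:91070057-91123844, plus strand) encodes p130, the pocket protein that is abundant in resting cells and anchors the DREAM repressor complex. Its counts were 3574, 3257 and 2646 in Foxo1TKO and 2352, 1648 and 2183 in Foxo1Ctrl. All Foxo1TKO libraries lay above all Foxo1Ctrl libraries (means 3159 ± 472 and 2061 ± 368), and the log2 fold change was 0.62 ± 0.19 (adjusted p = 0.0488). The call is a narrow one. All 6 fits without 1 library lost it, whichever library that was (adjusted p from 0.052 to 0.15, log2 fold change 0.49 to 0.74). It held in the other 9 alternatives.

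Ccng2 (ENSMUSG00000029385, chr5:93267257-93276231, plus strand) encodes cyclin G2, an atypical cyclin that is highest in cells leaving the cycle. Its counts were 744, 1414 and 1492 in Foxo1TKO and 839, 1415 and 1935 in Foxo1Ctrl. As for Cdk6, replicate 1 was the lowest in both genotypes. The log2 difference of -0.20 ± 0.35 did not pass the test (adjusted p = 0.728), and its sign turned without Foxo1TKO replicate 1 (0.054) or without Foxo1Ctrl replicate 3 (0.102). Ccng2, Ccnd3 and Cdk6 were among the least steady genes: their SDs within a genotype were 0.58, 0.53 and 0.53 on the log2 scale, and 90.0%, 87.0% and 86.8% of the 9235 genes compared had smaller ones, beside a median of 0.27. These SDs are of TMM-normalized counts, and for Ccnd3 the spread was smaller on the length-corrected signal given above.

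**Figure D3:**
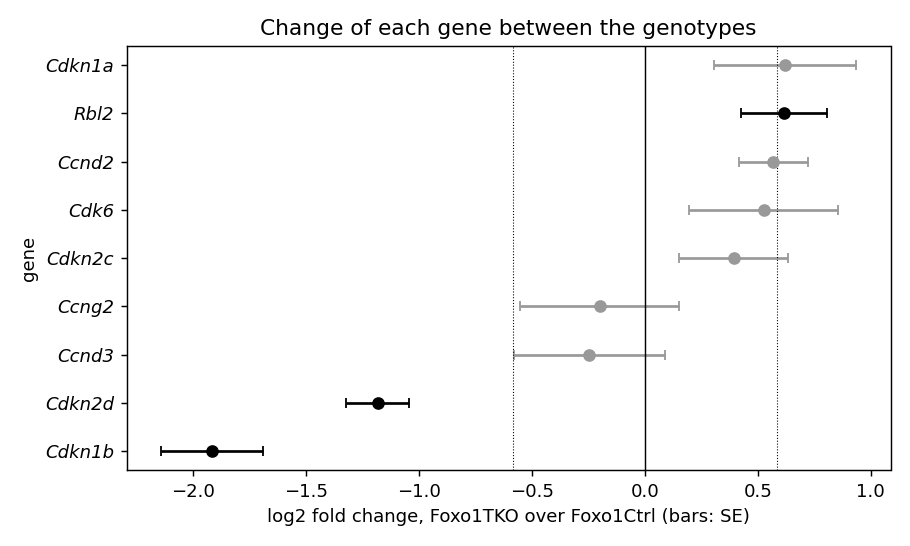
Log2 fold change of Foxo1TKO over Foxo1Ctrl (x axis) with its SE for each tested gene (y axis), from 3 libraries of each genotype. Black genes were called and grey ones were not, and dotted lines mark a fold of 1.5; Cdkn1b at -1.92 and Cdkn2d at -1.18 stand apart on the left, and Ccnd2 lies just inside the line on the right.

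Several of these genes share exon bases with a gene on the other strand, and no source used here says whether reads were counted by strand. For Rbl2 the partners were Aktip, at 653 to 1229 expected counts per library with a log2 difference of 0.17 (adjusted p = 0.647), and Gm45464, at 13.4 to 80.4 counts. For Ccnd2 they were 9330179D12Rik and Gm43126, at no more than 30.4 and 93.0 counts. For Ccnd3 it was Bysl, at 97.6 to 646 counts, which rose with a log2 fold change of 1.22 (adjusted p = 0.0283). Gm17590 reached 9 counts over Cdk6, and AC167363.2 had 0 counts over Cdkn1a. Cdkn1b, Cdkn2a, Cdkn2c, Cdkn2d and Ccng2 had no such partner.

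Ranked by level per length, Ccnd2 led in both genotypes, at 562 ± 104 TPM in Foxo1TKO and 340 ± 56.0 TPM in Foxo1Ctrl (SD, n = 3). In Foxo1Ctrl its range overlapped that of Cdkn2d, at 316 ± 59.1 TPM, whereas in Foxo1TKO Cdkn2d stood apart at 144 ± 17.3 TPM. Ccnd3 was the next in each, at 101.2 ± 21.6 and 122.7 ± 16.7 TPM. The order then ran Rbl2 (51.9 ± 10.4 TPM), Ccng2 (31.7 ± 8.98), Cdkn1a (15.9 ± 3.07), Cdkn2c (14.2 ± 1.47), Cdk6 (9.62 ± 2.78) and Cdkn1b (8.29 ± 0.928) in Foxo1TKO. The ranges of Cdkn1a and Cdkn2c, and of Cdk6 and Cdkn1b, overlapped there. In Foxo1Ctrl it ran Ccng2 (34.9 ± 15.8 TPM), Rbl2 (32.9 ± 8.33), Cdkn1b (29.2 ± 6.48), Cdkn2c (11.2 ± 1.61), Cdkn1a (10.2 ± 2.58) and Cdk6 (6.42 ± 1.58), where only Cdkn1b and Cdkn2c were neighbours whose ranges did not overlap. By mean TPM, Cdkn1b was thus the lowest of the 9 in Foxo1TKO and stood above Cdkn2c, Cdkn1a and Cdk6 in Foxo1Ctrl.

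Summed over Cdkn1a, Cdkn1b, Cdkn2a, Cdkn2c and Cdkn2d, the inhibitors reached 195, 181 and 171 TPM in Foxo1TKO and 412, 301 and 388 TPM in Foxo1Ctrl. The ratio of D-type cyclin to inhibitor TPM was 4.06, 3.59 and 3.21 in Foxo1TKO and 1.20, 1.27 and 1.33 in Foxo1Ctrl (means 3.62 ± 0.429 and 1.264 ± 0.064). Each Foxo1TKO library lay above every Foxo1Ctrl library, and most of the inhibitor sum was Cdkn2d. The ratio is one of RNA levels only, and was not tested.

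**Figure D4:**
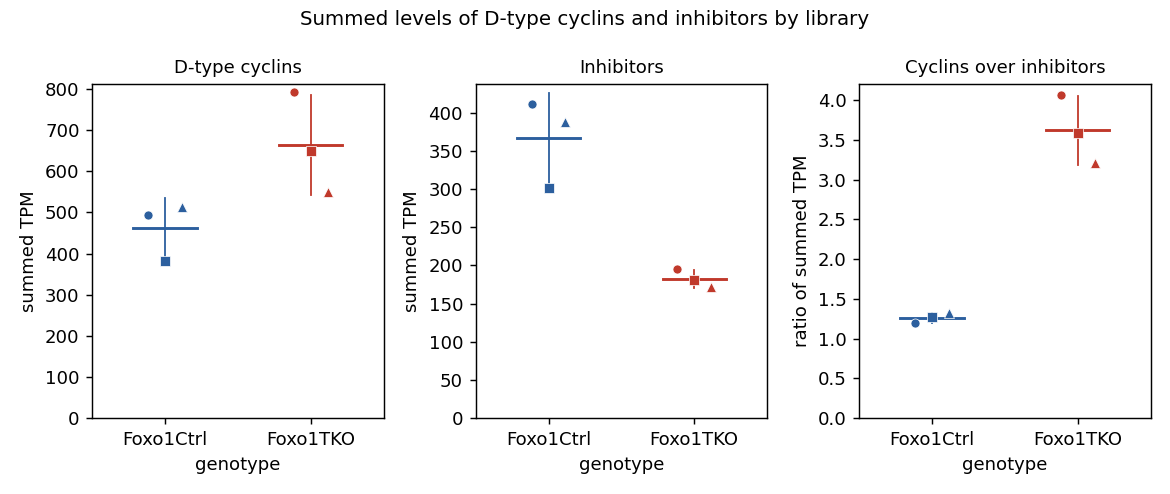
Summed TPM of Ccnd1, Ccnd2 and Ccnd3 (left), summed TPM of the 5 inhibitors (middle) and the ratio of these sums (right) in each library of Foxo1Ctrl (blue) and Foxo1TKO (red), with mean (line) and SD (vertical bar, n = 3); marker shapes are the replicates. The ratio runs from 3.21 to 4.06 in Foxo1TKO and from 1.20 to 1.33 in Foxo1Ctrl.

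Promoters were inspected for letters that Foxo proteins are known to bind, because Foxo1 is the factor removed. RefSeq (GRCm38.p6) gave 13 start sites for 9 of the 10 genes. In the 250 bases before each start, the full motif GTAAACA, searched on both strands, occurred at 1 of the 13, the upstream start of Ccnd3, and in 3.17% of all 32851 promoters. Its core AAACA on either strand, a search chosen after the sequences were seen, occurred at 5 of the 13 and in 46.4% of all promoters. The matches are shown in capitals below, first for the whole window of Ccnd3 (chr17:47504801-47505050, plus strand), the only one with the full motif, and of Cdkn1b (chr6:134920151-134920400, plus strand), the gene with the largest change. In Cdkn2d (chr9:21291325-21291354, minus strand) and Ccng2 (chr5:93267543-93267572, plus strand) the core lay in an exon of the GENCODE annotation, and the 30 bases around it are given.
Ccnd3: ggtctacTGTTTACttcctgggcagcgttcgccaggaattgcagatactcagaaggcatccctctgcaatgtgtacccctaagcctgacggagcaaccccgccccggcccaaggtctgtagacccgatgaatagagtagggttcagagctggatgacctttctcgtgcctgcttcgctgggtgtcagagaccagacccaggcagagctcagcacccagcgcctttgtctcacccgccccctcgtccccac
Cdkn1b: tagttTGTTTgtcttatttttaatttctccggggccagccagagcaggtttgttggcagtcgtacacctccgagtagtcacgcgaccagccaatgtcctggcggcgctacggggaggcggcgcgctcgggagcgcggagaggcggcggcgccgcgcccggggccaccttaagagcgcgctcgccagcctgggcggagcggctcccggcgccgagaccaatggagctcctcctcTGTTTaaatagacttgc
Cdkn2d: gagtttgtaagaAAACAagggcgctctggg
Ccng2: gggcgtcgcagactcaAAACAaAAACAagg

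The core stood 245 and 17 bases before the start of Cdkn1b, 133 bases before that of Cdkn2d and 14 and 8 bases before that of Ccng2. The full motif of Ccnd3 overlaps its core, which stood 243 bases before the start. The other match was at a start of Cdkn2a, at 236 and 137 bases. A match is a description of these letters and not a binding site.

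The other genes of the pathway were counted by list, each to be read beside the 11.1% higher and 11.8% lower of all genes tested. Of 14 tested genes for other G1 cyclins, kinases and inhibitors, 2 rose and 0 fell (median log2 fold change 0.29). They were Cdk4, given above, and Cables1, an adaptor between kinases, at 382 ± 23.1 against 212 ± 17.6 counts (log2 fold change 0.85 ± 0.18, adjusted p = 0.0116, but 0.0628 without Foxo1Ctrl replicate 1). Counted without a limit on the fold, 4 of the 14 were higher at an unadjusted p under 0.05 and 0 were lower, and DESeq2 and limma called 0 lower.

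Of 19 tested genes for pocket proteins, E2F factors and the DREAM complex, 6 rose and 0 fell (median 0.52), and here too 0 were lower at an unadjusted p under 0.05 or by DESeq2 or limma. E2f3, an activator of S-phase genes, had 187 ± 8.10 against 55.5 ± 7.73 counts (log2 fold change 1.74 ± 0.23, adjusted p = 0.00167). Tfdp1 and Tfdp2, the dimer partners of E2F proteins, rose by 1.24 ± 0.20 and 0.84 ± 0.16 on the log2 scale (adjusted p = 0.00348 and 0.00849). E2f6, a repressor, rose by 1.41 ± 0.36 (adjusted p = 0.0262), a call lost in 4 of the 6 fits without 1 library (adjusted p up to 0.105). The pocket protein genes Rb1 and Rbl1, at log2 differences of -0.56 (adjusted p = 0.162) and -0.23 (adjusted p = 0.412), did not pass the test, so that Rbl2 was the only one of the 3 to be called.

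None of 16 tested genes for the turnover of p27 and of D-type cyclins was called in either direction (median 0.25). Of the 16, 4 were higher at an unadjusted p under 0.05 and 0 were lower, and DESeq2 and limma called 0. The fit with the replicate number as a block called 2 higher, and those without Foxo1TKO replicate 1, Foxo1Ctrl replicate 2 or Foxo1Ctrl replicate 3 called 1 each. Skp2 and Cks1b, the receptor and cofactor that mark p27 for degradation, were at log2 differences of 0.68 (adjusted p = 0.109) and 0.79 (adjusted p = 0.123).

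Of 16 tested genes of the p53 pathway 2 rose and 4 fell (median 0.06). Perp, a membrane protein of p53-driven death, rose from 15.6 ± 1.65 to 109 ± 31.5 counts (log2 fold change 2.72 ± 0.33, adjusted p = 0.00114). Tigar, a brake on glycolysis, rose by 1.02 ± 0.29 (adjusted p = 0.0375), a call that 5 of 15 alternatives lost (adjusted p up to 0.128). The antiproliferative gene Btg2 fell by 1.05 ± 0.17, from 22172 ± 1547 to 10703 ± 1723 counts (adjusted p = 0.00373). Trp53inp1 fell by 0.73 ± 0.15, Mdm4, an inhibitor of p53, by 0.71 ± 0.15 and Sesn1, a stress-induced inhibitor of mTORC1 signalling, by 0.68 ± 0.16 (adjusted p = 0.01, 0.0115 and 0.0175), and without Foxo1TKO replicate 2 none of these 3 was called (1 gene called lower in place of 4). The call of Mdm4 was also lost on length-corrected values, and that of Sesn1 in 4 of the 6 fits without 1 library. Cdkn1a, the classic p53 target among the brakes, is given above and did not pass the test.

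Among 13 tested Polycomb and other regulators of the Ink4a-Arf locus 1 rose and 1 fell (median -0.17). The histone demethylase gene Kdm6b rose by 1.27 ± 0.29 (adjusted p = 0.016) and the Polycomb gene Cbx7 fell by 1.10 ± 0.23 on the log2 scale (adjusted p = 0.0116). The call of Kdm6b was lost without replicate 3 of either genotype and that of Cbx7 without Foxo1TKO replicate 2 (adjusted p up to 0.0524 and 0.0661). The Ink4a-Arf transcripts themselves were at the limit of detection, as above.

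Of 19 tested proliferation markers 6 rose and 0 fell (median 0.62), and 9 were higher and 0 lower at an unadjusted p under 0.05. DESeq2 and limma called 0 lower. Mcm5 and Mcm6, subunits of the replicative helicase, rose by 1.49 ± 0.32 and 1.12 ± 0.17 (adjusted p = 0.0121 and 0.00288), Cdk1, the mitotic kinase, by 1.04 ± 0.30 (adjusted p = 0.039) and Rrm2, of ribonucleotide reductase, by 0.94 ± 0.22 (adjusted p = 0.0163). Mki67 was at a log2 difference of -0.12 (adjusted p = 0.799). The call of Cdk1 was lost in 5 of the 6 fits without 1 library (adjusted p up to 0.136), and that of Rrm2 without Foxo1TKO replicate 2 or without Foxo1Ctrl replicate 3 (adjusted p = 0.0636 and 0.0675). The number called was 2 without Foxo1TKO replicate 2 or without Foxo1Ctrl replicate 3, and 3 without Foxo1Ctrl replicate 1. By dilution of a dye in such cultures, the study found that cells lacking Foxo1 divided markedly less than controls. The RNA levels here do not count divisions, and how they relate to that measurement was not tested.

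**Figure D5:**
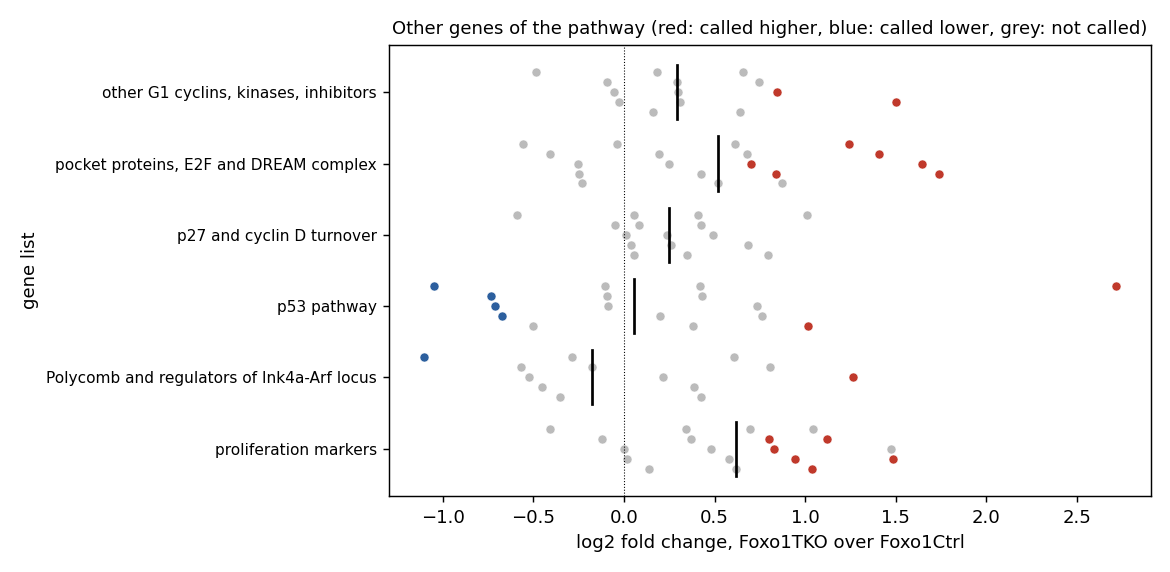
Log2 fold change of Foxo1TKO over Foxo1Ctrl (x axis) of every tested gene in 6 lists (y axis), with red for genes called higher, blue for genes called lower, grey for those not called and a black line at the median of the list. Blue points occur in the p53 list (4 genes) and in the Polycomb list (1 gene), and red points are most frequent in the E2F and proliferation lists (6 genes each).

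The genes whose profile over the 6 libraries was closest to that of the 2 inhibitors that fell were found by the distance between centred log2 levels, among 9226 genes. For Cdkn1b they were Txnip (distance 0.35, log2 fold change -1.71), Il18r1 (0.36, -1.72) and Rgs2 (0.41, -1.74). For Cdkn2d they were Cited2 (0.12, -1.13), Cdk2ap2 (0.15, -1.10) and 4930453N24Rik (0.19, -1.17). The distances were smaller for Cdkn2d, whose replicates were the steadier.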

How the data were processed

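RNA-seq libraries of 3 Foxo1TKO and 3 Foxo1Ctrl cultures were grouped by the genotype in their labels. The authors aligned reads with STAR 2.7.6a to Ensembl GRCm38 and counted them with RSEM 1.3.1; reads that map to several loci are shared, so the deposited expected counts need not be whole. The authors also deposited TPM values per gene and library, transcript lengths and effective lengths in bases estimated by RSEM, and a table of normalized signal. Every normalized value over 10 counts equalled, within 0.1%, the rounded expected count over the relative effective length and a scaling constant of the library. That constant was the median of these same values, and was not compared with DESeq2's size factors. Trimming and strandedness are not given in the sources used here.

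Expected counts were rounded. Genes reaching 10 counts in 3 or more libraries (13691 of 55487) were tested with edgeR 4.0.16 in R 4.3.3 (TMM, glmQLFit, glmQLFTest, prior count 1, genotype only, Benjamini-Hochberg adjustment over all genes tested). Calls needed an adjusted p under 0.05 together with a fold over 1.5, and the test was tried on simulated data. Alternatives were DESeq2 1.42.0 (the test the authors used), other scalings and filters, the effective length as an offset, limma 3.58.1 on the authors' signal (log2 of the value plus 1 or 10), the replicate number as a block and each library left out in turn. Depth was 14783853 to 19675407 counts. The floor of 3 counts given for Cdkn2a covers counting error only, whereas the SDs and SEs include the spread between libraries.

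The genes and the lists were chosen with earlier results of these data known. Named are all 10 genes, Foxo1, up to 4 called genes in each direction of each pathway list by size of change (mean of at least 50 counts), the 3 nearest profiles of Cdkn1b and Cdkn2d (mean of at least 100 counts), and, added after their values were seen, Ccnd1, Rb1, Rbl1, Skp2, Cks1b, Mki67 and the overlapping genes. Positions are from GENCODE M21 (GRCm38). Protein sequences were not used here. One list of cell type markers is not reported here.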

Additional observations from a re-analysis of the deposited data

How the results depend on the processing

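Cdkn1b and Cdkn2d stayed called lower in all 15 alternatives. The number of cell cycle brakes and D-type cyclins called higher was 1 (Rbl2), 2 with the effective length offset, with the authors' signal (pseudocount 1 or 10) or with no limit on the fold (each adding Ccnd2), and 0 in every fit without 1 library. Without 1 library the genes called over the whole table ranged from 657 to 1672 higher (1525 with all) and from 933 to 1493 lower (1619 with all); the lowest of both was without Foxo1TKO replicate 2, and fewer libraries were fitted in each. Called genes ranged likewise from 1 to 3 higher for other G1 genes, 3 to 5 higher for pocket proteins and E2F, 0 to 1 higher for p27 and cyclin D turnover, 1 to 2 higher and 1 to 4 lower for p53, 0 to 1 higher and 0 to 2 lower for Polycomb, and 2 to 7 higher for proliferation. DESeq2 called 2 Polycomb genes higher in place of 1, 8 proliferation markers in place of 6 and 3 other G1 genes in place of 2. The log2 difference of Ccng2 ranged from -0.486 without Foxo1Ctrl replicate 1 to 0.102 without Foxo1Ctrl replicate 3, and was 0.054 without Foxo1TKO replicate 1.

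With a replicate block 1657 genes were called higher and 1661 lower; of the brakes and cyclins 1 was higher and 2 lower, as without it. The block moved the lists of turnover (2 higher in place of 0), p53 (1 higher in place of 2) and Polycomb (2 higher in place of 1). It also changed proliferation (8 higher in place of 6), pocket proteins and E2F (5 in place of 6) and other G1 genes (3 in place of 2). The call of Tigar was lost (adjusted p = 0.0503). Deviations of same-numbered libraries correlated at 0.43, 0.20 and -0.11, and those of differently numbered libraries at -0.455 to 0.301. So few values cannot show whether same-numbered libraries were paired. For flow cytometry of such cultures the study used tests paired by experiment. The cause of the shifts under the block was not tested. At these depths Cdkn2a, with no more than 2 counts in any library, was at the limit of detection.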
